A study of Mus musculus with 14 samples.

Results

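The transcripts of 7 adhesion molecules of the vessel lining were followed in the superior mesenteric artery (SMA) of 14 mice. They are 4 inducible receptors for white blood cells (Icam1, Vcam1, Sele and Selp) and 3 constitutive proteins of the endothelial surface and its junctions (Icam2, Pecam1 and Cdh5). The 7 genes were chosen by their symbols among 46095 in the count table, for their known roles and with values of these same counts already known, so their levels and folds after ischemia are given as a description and support nothing further. All 7 passed the filter on low counts, among 17693 genes tested.

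The mice were 8-week-old C57BL/6 animals in 4 groups. WT mice carried an intact gene for Drp1, the dynamin-related GTPase of mitochondrial fission (Dnm1l in the table), labelled Drp1 +/+. The KO mice were labelled Drp1 flox/+ and described in the study's methods as heterozygotes made with CRISPR. No Cre driver was named, and these counts do not show the state of the allele. The Normal WT group held 3 mice, Normal KO 4, Ischemia WT 3 and Ischemia KO 4. The ischemic mice were bled through the femoral artery before the vessel was taken, and the normal mice were not. The label of the ischemic libraries carries a time of 2 h, and the methods give another period, so the time is uncertain here. The whole vessel was sequenced, which mixes endothelium with smooth muscle, adventitia and attached fat. In such bulk tissue fewer cells of a type and less RNA per cell cannot be told apart.

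Circulating white blood cells leave the blood in steps. The selectins E-selectin (Sele) and P-selectin (Selp) catch them by their surface sugars and let them roll. ICAM-1 and VCAM-1, members of the immunoglobulin superfamily, then hold them through their integrins, while ICAM-2, PECAM-1 (Pecam1) and VE-cadherin (Cdh5) are present on resting endothelium. The inducible genes are textbook targets of NF-kB in endothelium exposed to cytokines. Icam1 and Vcam1 are also made by smooth muscle cells and fibroblasts, Icam1 and Pecam1 by white blood cells, and Selp and Pecam1 by platelets and their precursors.

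Promoter sequence was at hand for 3 of the 7 genes, and the stretches are shown because all 3 genes had higher transcript levels in every ischemic mouse than in every normal mouse. Each run below gives the 250 bases before the RefSeq start, 5′ to 3′ on the gene's own strand (RefSeq, GRCm38.p6, plus strand for all 3). They lie at chr9:21015690-21015939 for Icam1, chr1:164047984-164048233 for Sele and chr1:164115014-164115263 for Selp. Capitals mark matches to GGNNNTTCC on either strand, a short and relaxed form of the NF-kB site.
Icam1: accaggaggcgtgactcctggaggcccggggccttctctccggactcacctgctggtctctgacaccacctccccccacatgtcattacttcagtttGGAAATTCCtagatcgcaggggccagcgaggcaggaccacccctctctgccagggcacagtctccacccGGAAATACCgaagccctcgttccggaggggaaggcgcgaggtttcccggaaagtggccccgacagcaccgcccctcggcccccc
Sele: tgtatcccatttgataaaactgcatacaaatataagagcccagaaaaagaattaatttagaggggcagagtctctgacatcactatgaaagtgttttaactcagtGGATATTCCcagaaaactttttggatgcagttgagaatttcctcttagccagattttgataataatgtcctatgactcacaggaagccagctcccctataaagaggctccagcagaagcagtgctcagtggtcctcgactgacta
Selp: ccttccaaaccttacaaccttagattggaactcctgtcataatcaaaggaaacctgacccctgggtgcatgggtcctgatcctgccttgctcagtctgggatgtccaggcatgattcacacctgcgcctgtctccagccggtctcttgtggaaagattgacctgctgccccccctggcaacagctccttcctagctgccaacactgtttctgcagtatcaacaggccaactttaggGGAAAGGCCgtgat

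The relaxed form was found 2 times in the Icam1 stretch, at 153 to 145 and at 84 to 76 bases before the start (GGAAATTCC and GGAAATACC). Sele held it at 145 to 137 bases (GGATATTCC) and Selp at 14 to 6 bases (GGAAAGGCC). The same letters occur in 15.7% of 32851 mouse promoter stretches of this length. The relaxed form was picked after the sequences had been seen. A stricter NF-kB consensus of 10 positions occurred in 3.9% of the stretches and in none of the 3. The AP-1 site TGANTCA (6.75% of stretches) stood in Sele as TGACTCA, 73 to 67 bases before the start, and in Selp as TGATTCA, 139 to 133 bases before it. A TATA box (TATAAA, 12.4% of stretches) and an ETS site (CAGGAAG, searched together with CCGGAAG, 17.0% of stretches) were found in Sele alone among the 3, at 49 to 44 and 66 to 60 bases. The marked sites do not overlap each other. These are matches of letters and not measured binding.

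Depth was 25612646 to 40255851 counts per mouse, with a median of 33506452, so 3 counts correspond to 0.0678 to 0.113 CPM, that is counts scaled to a common library size. Levels are CPM after TMM scaling, which corrects for differences in library composition. The labels number the mice of a group and say no more of their origin, so the p-values measure the spread between these mice. Normal WT replicate 3 was read on lane 1 and the other 13 libraries on lane 8. The targeted gene Dnm1l averaged 73.5 ± 15.1 CPM (SD, n = 3) in Normal WT and 58.9 ± 3.30 (SD, n = 4) in Normal KO, with no overlap between the mice, while the ischemic mice, which overlapped, averaged 75.0 ± 10.3 (SD, n = 3) in WT and 69.4 ± 6.88 (SD, n = 4) in KO. Neither difference passed the limits (edgeR, adjusted p = 0.974 and 0.872). The share of all tested genes without overlap between Normal WT and Normal KO was not counted, so nothing is read from that gap. The labelled tissue was checked against its markers: smooth muscle Acta2 averaged 7770 to 14461 CPM by group, and the endothelial genes Eng and Vwf 198 to 254 and 138 to 164 CPM. Tagln, another smooth muscle marker, averaged only 1.97 to 3.76 CPM by group, the lowest of its list, and the reason was not tested.

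The inducible receptors were far higher after ischemia in each genotype, and the constitutive genes were not. Averaged over genotypes, 4 of the 7 genes passed both limits (adjusted p under 0.05 and a fold over 1.5 in edgeR's quasi-likelihood test), all 4 higher, against 0.616% of all tested genes called higher. In WT mice 1 of 7 passed (Icam1), where 0.0113% of tested genes were called higher. With the replicate number as a block the WT value of Icam1 was 4.48 in log2 and no longer passed (adjusted p = 0.0899). In KO mice 2 of 7 passed (Icam1 and Sele), against 0.187%. Every ischemic mouse lay above every normal mouse for 4 of 7 genes in WT, where 6.63% of tested genes did so. The same 4 genes did so in KO mice, against 5.49% of tested genes, and 3 of them over both genotypes together, against 0.576%. Nothing is read from these shares, since the same values were known when the genes were chosen.

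**Figure D1:**
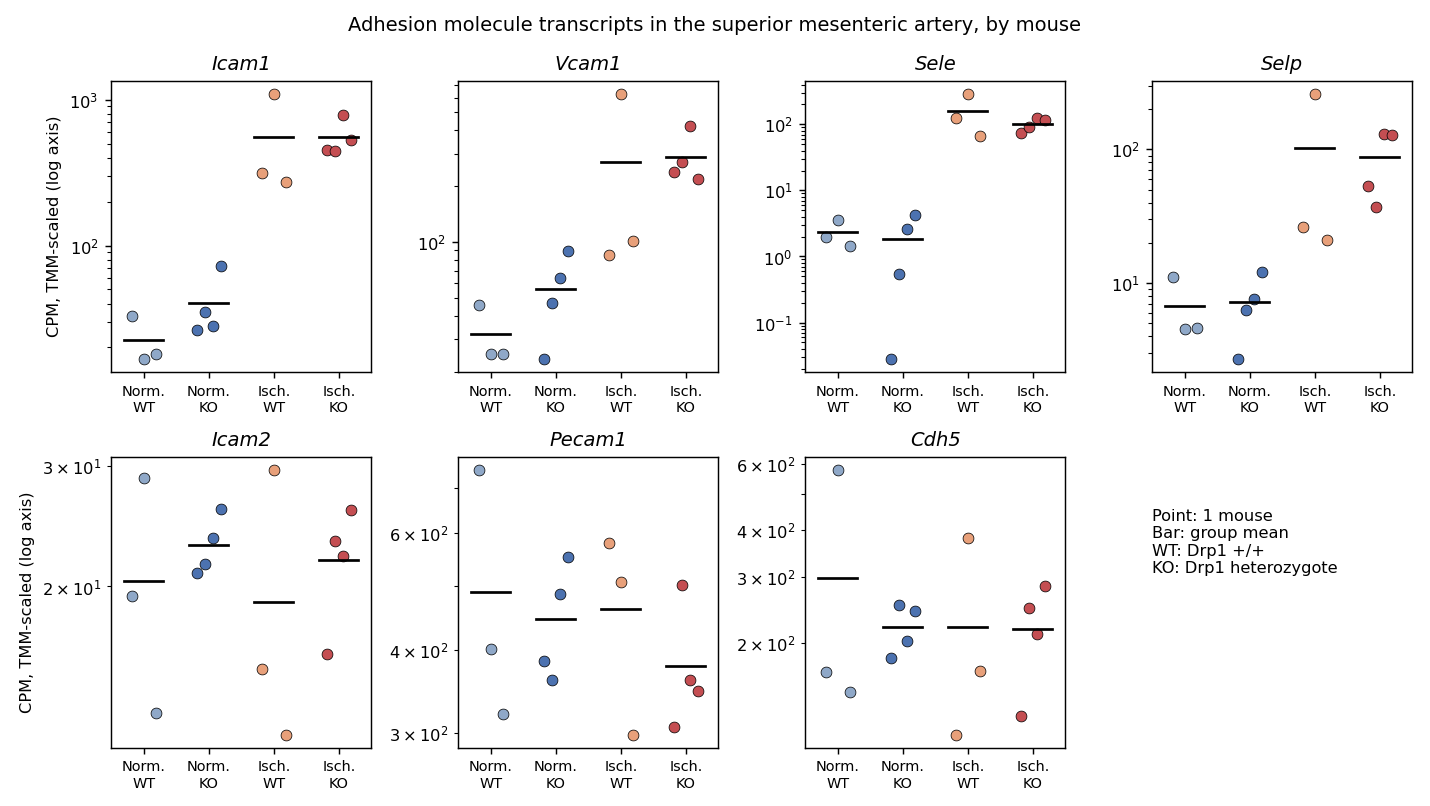
Transcript level of each adhesion molecule in CPM on a log axis, by group, with 1 point per mouse and a bar at the group mean. Icam1, Sele and Selp have no ischemic mouse within the range of the 7 normal mice, Vcam1 has 1, and Icam2, Pecam1 and Cdh5 overlap across all groups.

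Icam1, the integrin ligand for firm arrest (chromosome 9, 21015985 to 21028817, plus strand, GRCm38), was measured at 33.0, 16.7 and 18.2 CPM in Normal WT replicates 1 to 3. Normal KO replicates 1 to 4 gave 26.4, 35.2, 27.9 and 72.6 CPM. Ischemia WT gave 314, 1090 and 272 CPM and Ischemia KO 452, 444, 784 and 533. Even the lowest ischemic mouse was well above the highest normal one, and WT replicate 2 was the highest of all. Group means were 22.6 ± 9.04 (SD, n = 3) in Normal WT, 40.5 ± 21.8 (SD, n = 4) in Normal KO, 559 ± 460 (SD, n = 3) in Ischemia WT and 553 ± 159 (SD, n = 4) in Ischemia KO. The fitted change, as log2 fold, was 4.62 (SE 0.610) in WT, 3.77 (SE 0.507) in KO and 4.20 (SE 0.400) averaged, or 18.4-fold. By p-value Icam1 was number 2 of the 17693 genes in the averaged comparison.

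Sele, the selectin for slow rolling (chromosome 1, 164048234 to 164057677, plus strand), was close to absent in the normal artery. Normal WT mice gave 1.98, 3.59 and 1.43 CPM, and Normal KO mice 0.0282, 0.533, 2.58 and 4.20, the first of these being a single count. After ischemia WT mice gave 124, 286 and 67.0 CPM and KO mice 73.2, 92.3, 126 and 116. The lowest ischemic mouse thus stood at 67.0 CPM against a highest normal value of 4.20. Group means went from 2.33 ± 1.12 (SD, n = 3) and 1.83 ± 1.92 (SD, n = 4) to 159 ± 113 (SD, n = 3) and 102 ± 23.6 (SD, n = 4). The averaged log2 fold was 5.94 (SE 0.712), or 61.4-fold, with 6.09 (SE 1.06) in WT and 5.79 (SE 0.906) in KO. This was the widest change among the 7 genes in each of the 3 ischemia comparisons, and its intervals overlapped that of Icam1.

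Selp, the selectin that endothelium stores in granules and also transcribes anew (chromosome 1, 164115264 to 164150026, plus strand), lies 57.59 kb beyond Sele. Normal WT mice gave 11.2, 4.54 and 4.57 CPM and Normal KO mice 2.71, 6.23, 7.55 and 12.2. Ischemia WT mice gave 26.3, 259 and 21.0 CPM, and Ischemia KO mice 53.1, 36.9, 129 and 129. All 7 ischemic mice exceeded the 7 normal ones, although Ischemia WT replicates 1 and 3 lay below all 4 Ischemia KO mice. The averaged log2 fold was 3.76 (SE 0.626), or 13.5-fold, and the fits gave 3.91 (SE 0.945) in WT and 3.60 (SE 0.806) in KO, neither of which passed the limits alone (adjusted p = 0.0851 in KO). The KO value passed in 5 of 9 other settings of the fit, with adjusted p from 8.81e-05 to 0.0884.

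Vcam1, the ligand of the integrin VLA-4 (chromosome 3, 116109949 to 116129688, minus strand), gave 45.8, 25.03 and 25.03 CPM in Normal WT and 23.4, 47.0, 64.2 and 89.7 in Normal KO. Ischemia WT mice gave 84.6, 627 and 101 CPM and Ischemia KO mice 238, 270, 425 and 219. The groups did not overlap within a genotype, whereas over both genotypes Ischemia WT replicate 1 (84.6) fell below Normal KO replicate 4 (89.7). The averaged log2 fold was 2.72 (SE 0.465), or 6.60-fold, the smallest of the 4 inducible genes. It was 3.08 (SE 0.711) in WT and 2.36 (SE 0.597) in KO, and neither passed the limits alone.

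**Figure D2:**
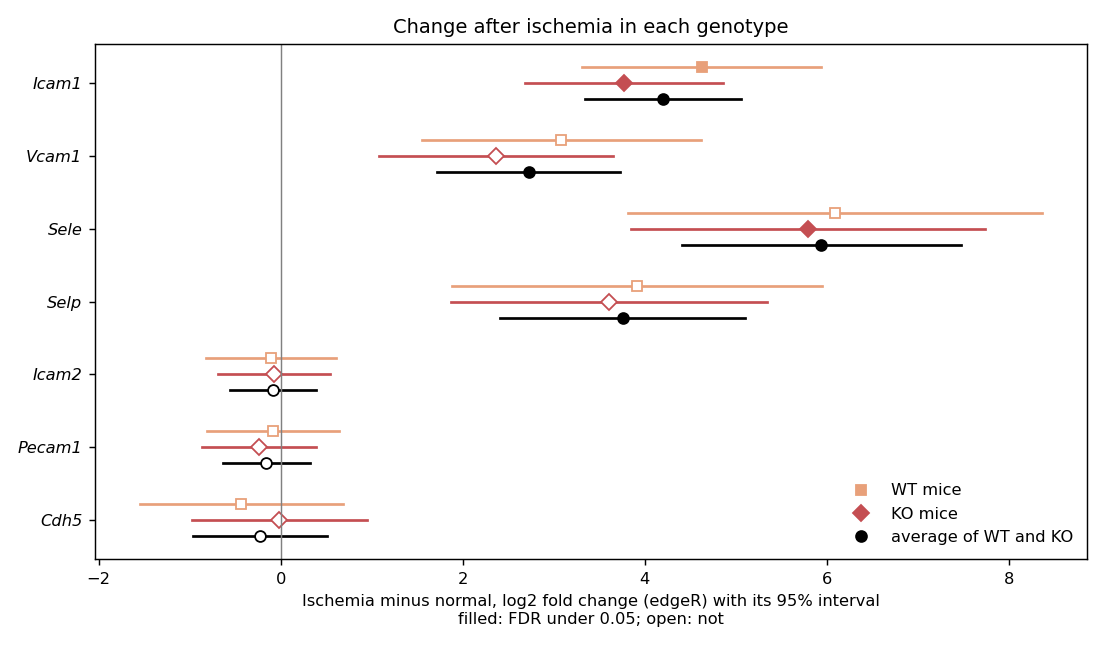
Ischemia minus normal as log2 fold change (x axis) for each gene, in WT mice, in KO mice and averaged, with 95% intervals from the edgeR fit. Filled symbols passed an adjusted p of 0.05. All intervals of Icam1, Vcam1, Sele and Selp lie above 0, and all those of Icam2, Pecam1 and Cdh5 span 0.

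Ischemia WT replicate 2 stood apart from the other 2 mice of its group. Its Icam1 was 3.72 times their mean, its Vcam1 6.75 times, its Sele 2.99 times and its Selp 10.9 times. Its Icam2 and Cdh5 were also higher, 2.17 and 2.69 times, while its Pecam1 was 1.16 times. The neutrophil list summed to 14.2 CPM in this mouse, against 1.19 and 2.10 in the other 2, and Il6 reached 24.5 CPM in it, against a group median of 0.331. Their part in its values was not tested. Without this mouse the averaged log2 folds were 3.73 for Icam1, 5.58 for Sele, 2.70 for Selp and 1.95 for Vcam1, and all 4 still passed the limits. That fit called 82 of all tested genes in the averaged comparison. In WT mice alone Icam1 then had 3.67, and no gene of the 7 and no other tested gene passed. In KO mice 4 of 7 then passed, among 86 genes called over all tested genes. These counts are not read as a difference between the genotypes. Among the 14 fits that each left out 1 mouse, the Icam1 call held in 5 for WT and 12 for KO, the Sele call held in 10 for KO, and the 4 averaged calls held in all 14.

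The constitutive genes gave no such separation. Pecam1, the junctional and signalling immunoglobulin molecule (chromosome 11, 106654217 to 106750628, minus strand), ranged from 320 to 746 CPM over the normal mice and from 299 to 578 over the ischemic mice. Cdh5, the cadherin of adherens junctions (chromosome 8, 104101625 to 104144511, plus strand), ranged from 148 to 580 and from 114 to 380 CPM. Icam2, the constitutive integrin ligand (chromosome 11, 106377656 to 106388075, minus strand, 266.1 kb from Pecam1), ranged from 13.1 to 28.8 and from 12.2 to 29.6 CPM. Medians over the 7 normal and the 7 ischemic mice were 401 and 360 CPM for Pecam1, 202 and 211 for Cdh5, and 21.6 and 22.2 for Icam2. The averaged log2 folds were −0.16 for Pecam1 (95% interval −0.64 to 0.32), −0.22 for Cdh5 (−0.96 to 0.51) and −0.09 for Icam2 (−0.56 to 0.38). The intervals leave room for a change of either sign, but not for one of the size fitted for Icam1, Sele, Selp or Vcam1. With the mean of 20 other endothelial genes as a covariate, the averaged values of Cdh5 and Icam2 turned to 0.20 and 0.12, again without passing the limits.

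The order of the 7 transcripts changed with ischemia when levels were set per length, as CPM per kilobase of summed exons. In Normal WT the order was Pecam1 (78.5), Cdh5 (70.9), Icam2 (10.7), Icam1 (5.19), Vcam1 (3.60), Selp (1.53) and Sele (0.801), and Normal KO had the same order. After ischemia Icam1 came first in WT (128) and KO (127), ahead of Pecam1 (74.1 and 60.8). Pecam1 and Cdh5 overlapped in all 4 groups. Sele went from last place to the third in WT (54.6) and the fourth in KO (34.9), and Icam2 had the lowest mean of the 7 (9.96 and 11.5). Its mice overlapped those of Selp, the next above it, in both genotypes (6.38 to 15.5 against 4.75 to 58.7 in WT, and 8.38 to 13.6 against 8.37 to 29.3 in KO), so the order of these 2 genes is within the spread. In WT the lowest Icam1 mouse (62.4) lay within the range of Pecam1 (48.0 to 92.9), so their order there is within the spread, while in KO the mice did not overlap (101.8 to 179.9 against 49.2 to 80.3).

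**Figure D3:**
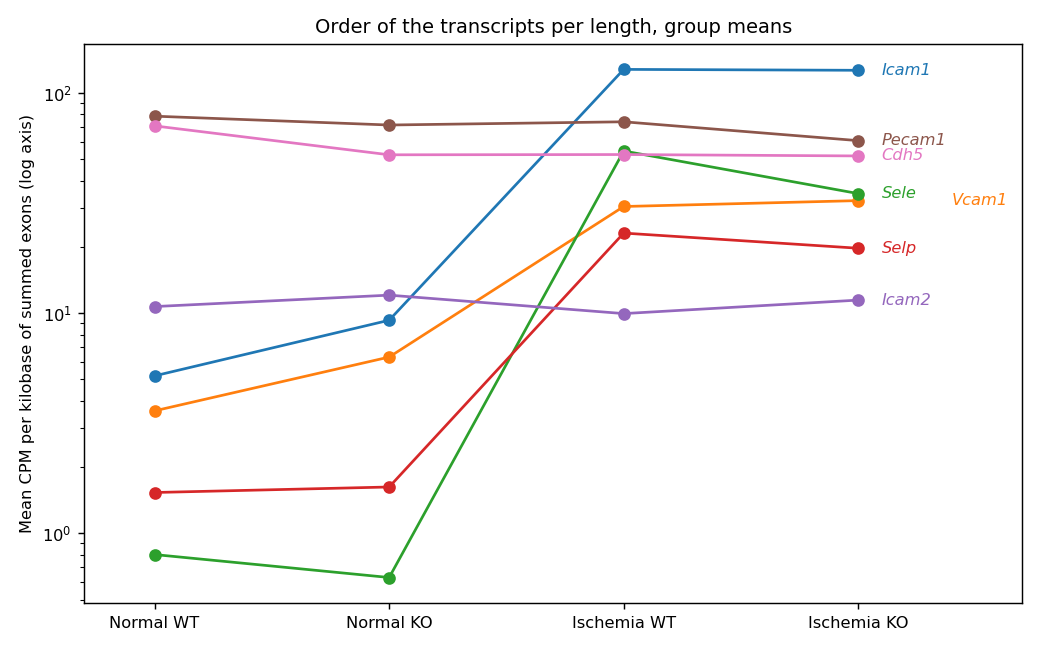
Group means of the 7 transcripts in CPM per kilobase of summed exons on a log axis, joined across the 4 groups for each gene. Icam1 crosses above Pecam1 and Cdh5 after ischemia, and Sele climbs from the lowest place to 54.6 in WT and 34.9 in KO.

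The amount of endothelium in the samples was gauged with 20 pan-endothelial genes other than the 7. Their summed level spanned 903 to 2498 CPM in Normal WT, 1157 to 1783 in Normal KO, 918 to 1640 in Ischemia WT and 839 to 1656 in Ischemia KO. The median log2 fold of these 20 genes after ischemia was −0.22, with 1 called lower (Sox18) and none higher, beside −0.05 over all tested genes. Of all 17693 tested genes 55 were called lower and 109 higher. Each adhesion gene was then expressed per mouse as its log2 CPM minus the mean log2 CPM of the list, a scale on which only differences between mice are read. Icam1 moved from −1.08 ± 1.09 (SD, n = 3) to 3.54 ± 0.760 (SD, n = 3) in WT and from −0.43 ± 0.476 (SD, n = 4) to 3.71 ± 0.486 (SD, n = 4) in KO. Sele moved from −4.36 to 1.78 and from −5.83 to 1.28, Selp from −2.88 to 0.43 and from −2.97 to 0.88, and Vcam1 from −0.58 to 2.17 and from 0.01 to 2.76, WT first in each pair. On this scale every ischemic mouse lay above every normal mouse for all 4 genes, Vcam1 included. How many of all tested genes do so on this scale was not counted, so nothing is read from it. The mean of the list itself went from 5.52 to 5.28 in WT and from 5.64 to 5.36 in KO, which adds to these differences. Pecam1 (3.32 to 3.51 in WT and 3.14 to 3.18 in KO), Cdh5 (2.41 to 2.32 and 2.13 to 2.35) and Icam2 (−1.23 to −1.14 and −1.12 to −0.93) stayed within the spread of the mice.

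**Figure D4:**
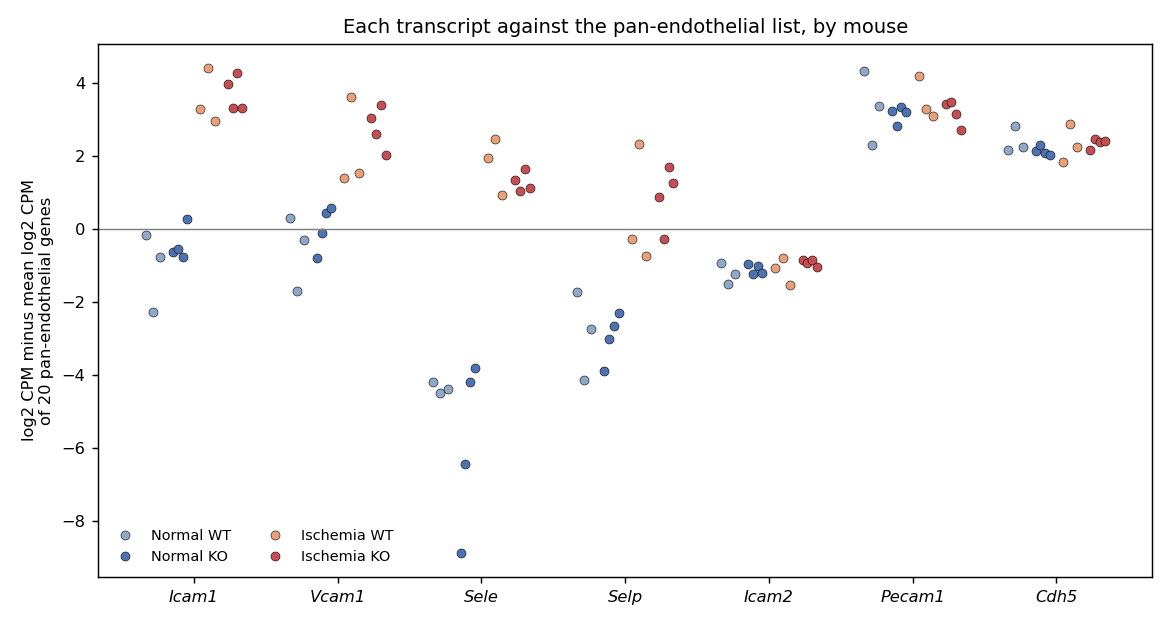
Log2 CPM of each gene minus the mean log2 CPM of 20 pan-endothelial genes, 1 point per mouse, coloured by group. The ischemic mice lie above the normal mice for Icam1, Sele, Selp and Vcam1, and the 4 groups overlap for Icam2, Pecam1 and Cdh5. The share of all tested genes with such a gap on this scale was not counted.

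Other cell types of the sample moved as follows, and their part in the results was not tested. The averaged comparison called 0.927% of all tested genes in either direction, so lists without a call say little. Summed smooth muscle genes (8 genes) spanned 7461 to 26030 CPM in Normal WT, 10900 to 25650 in Normal KO, 20650 to 38020 in Ischemia WT and 19360 to 31280 in Ischemia KO, and none of the 8 was called. Fibroblast genes (6 genes) spanned 1205 to 3016, 1104 to 7147, 1203 to 6390 and 1532 to 2258 CPM in the same order. White blood cell markers differed in level. The macrophage genes C1qa and C1qb averaged 47.2 and 46.0 CPM in Normal WT and 94.3 and 89.2 in Normal KO. After ischemia they averaged 30.9 and 33.1 CPM in WT and 47.8 and 46.3 in KO. These levels are not set per length and are not compared with those of the adhesion genes. The macrophage list (6 genes) spanned 116 to 259, 142 to 441, 42.4 to 162 and 98.7 to 241 CPM. The lymphocyte list (7 genes, among them the pan-leukocyte gene Ptprc) spanned 6.19 to 11.4, 10.1 to 43.9, 2.38 to 3.27 and 2.70 to 10.03 CPM, with Cd3g called lower after ischemia. Ptprc had the highest mean of this list in every group (4.84, 12.8, 1.66 and 3.61 CPM), so its sum is not of lymphocytes alone. Platelet genes (7 genes) spanned 4.05 to 24.0, 3.65 to 29.3, 2.46 to 8.27 and 2.58 to 5.80 CPM. Only 3 of the 7 passed the filter on low counts (Itga2b, Gp9 and Gp6), while Pf4, Ppbp, Gp1ba and Gp1bb did not. Itga2b had the highest mean of the list in every group (7.83, 8.48, 3.42 and 3.44 CPM), so the sum is a weak gauge of platelets. The neutrophil list (5 genes) spanned 0.767 to 5.72, 1.77 to 7.49, 1.19 to 14.2 and 1.99 to 18.1 CPM, with none called. The summed levels of the platelet, macrophage and lymphocyte lists exceeded that of the highest normal mouse in no ischemic mouse. The neutrophil list exceeded its highest normal value (7.49 CPM) in Ischemia WT replicate 2 (14.2) and Ischemia KO replicate 3 (18.1), which were also the 2 mice with the highest Icam1 (1090 and 784 CPM). With the group means removed, log2 CPM of Icam1 had a Pearson r of 0.645 with this list over the 14 mice. The same r was 0.699 for Vcam1, 0.579 for Selp and 0.509 for Sele. It was 0.641 for Cdh5, 0.625 for Icam2 and 0.051 for Pecam1. With the macrophage, lymphocyte and platelet lists Icam1 had 0.581, 0.452 and 0.089. Of the other lists, mesothelial (5 genes, 2.14 to 114.5 CPM over all mice), lymphatic endothelial (5 genes, 21.4 to 91.6), adipocyte (5 genes, 410 to 9024) and brown adipocyte genes (5 genes, 157.5 to 6721), none had a gene called in the averaged comparison. Brown adipocyte genes spanned 157.5 to 6721 CPM in Normal WT, 1117 to 6203 in Normal KO, 265 to 1375 in Ischemia WT and 959 to 4813 in Ischemia KO. Their median log2 fold for KO minus WT was −0.09 in the normal artery and 1.66 after ischemia, with none called. Erythroid genes (5 genes) spanned 107 to 251 CPM in Normal WT, 346 to 592 in Normal KO, 4.62 to 109 in Ischemia WT and 75.9 to 186 in Ischemia KO. Their median log2 fold was −1.73, and none was called. No marker of these lists was at 0 in all 14 mice.

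The Drp1 genotype gave no called difference in any of the 7 genes. In the normal artery 0 of 7 genes passed, beside 0% of all tested genes (edgeR; 929 genes had an unadjusted p under 0.05, and DESeq2 called 50, none of the 7, with no adjusted p for Vcam1). KO minus WT was 0.84 in log2 for Icam1 (95% interval −0.24 to 1.92) and 0.81 for Vcam1 (−0.54 to 2.16), and lay between −0.44 and 0.17 for the other 5. After ischemia 0 of 7 passed, beside 0% of all tested genes (edgeR; 1146 genes under an unadjusted p of 0.05, and DESeq2 called 32, again none of the 7 and with no adjusted p for Vcam1). The values were −0.01 for Icam1 (−1.07 to 1.04), 0.09 for Vcam1 (−1.23 to 1.41), −0.64 for Sele (−2.32 to 1.04) and −0.23 for Selp (−1.91 to 1.45). The intervals leave room for differences of 2-fold or more in either direction for all 4 genes, so a likeness of the genotypes is not shown. These values also turned on Ischemia WT replicate 2: without it KO minus WT was 0.96 for Icam1, 1.68 for Vcam1, 0.13 for Sele and 1.93 for Selp, with adjusted p of 0.676 to 0.980.

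The interaction, the ischemia change in KO minus that in WT, was likewise not called in any of the 7 genes, beside 0% of all tested genes (edgeR; 765 genes under an unadjusted p of 0.05, and DESeq2 called 13, none of the 7). It was −0.85 for Icam1 (−2.35 to 0.64), −0.72 for Vcam1 (−2.59 to 1.15), −0.30 for Sele (−2.78 to 2.19) and −0.31 for Selp (−2.71 to 2.10). Without Ischemia WT replicate 2 the same values were 0.13, 0.87, 0.48 and 1.85. That Icam1 passed in WT while Sele passed only in KO is therefore not shown to be a difference between the genotypes.

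Within the 7 ischemic mice the inducible genes varied together. Over log2 CPM, Icam1 and Selp had a Pearson r of 0.955 (Spearman rho 1.0), Icam1 and Vcam1 0.953 (rho 0.821), and Vcam1 and Selp 0.867 (rho 0.821). The 3 pairs with Sele gave 0.621 to 0.794. Without Ischemia WT replicate 2 the first 3 pairs gave 0.922, 0.926 and 0.778 over 6 mice, and the pairs with Sele 0.223 to 0.536. With the 2 mice farthest from the median of the first-named gene left out, the 6 pairs ran from 0.271 (Sele with Selp) to 0.903 (Icam1 with Selp) over 5 mice, and Vcam1 with Sele was at 0.760, above Vcam1 with Selp at 0.736. In the 7 normal mice the 6 pairs ran from 0.149 (Icam1 with Sele) to 0.863 (Vcam1 with Selp). The points share 1 table and, but for 1 normal mouse, 1 lane, and the values are descriptions over few mice.

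The constitutive genes did not vary as one set over the 14 mice. Cdh5 followed the pan-endothelial list (Pearson r 0.924, rho 0.908, and 0.845 without the 2 mice farthest from the median of the list), as did Icam2 (0.841, 0.899 and 0.868). Pecam1 did not (0.164, 0.310 and 0.111), and its r with Cdh5 was 0.03. Cdh5 and Icam2 ran against the smooth muscle list (r −0.777 and −0.661), and Pecam1 had an r of 0.00128 with it, close to 0. With the brown adipocyte list the r was 0.647 for Cdh5, 0.569 for Icam2 and −0.39 for Pecam1. Without the 2 mice farthest from the median of that list these were 0.611, 0.672 and 0.445.

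**Figure D5:**
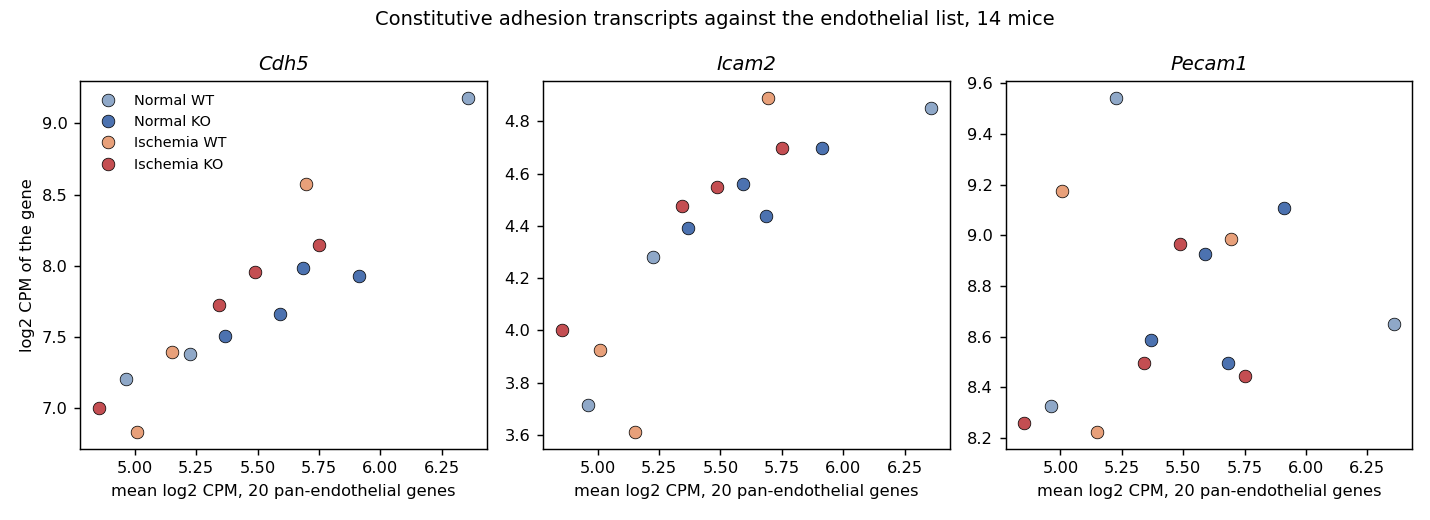
Log2 CPM of Cdh5, Icam2 and Pecam1 (y axes) against the mean log2 CPM of 20 pan-endothelial genes (x axis), 1 point per mouse, coloured by group. Cdh5 (r 0.924) and Icam2 (r 0.841) rise along the list and Pecam1 (r 0.164) scatters.

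By a fixed rule, the 3 genes with the highest Pearson r of log2 CPM over the 14 mice were listed for each adhesion gene. For Icam1 they were Tnfaip3 (0.970), a feedback inhibitor of NF-kB signalling, the chemokine Cxcl2 (0.958) and the RNase gene Zc3h12a (0.951). For Sele they were Rel (0.934), an NF-kB subunit, the inhibitor gene Nfkbia (0.924) and Nfkbiz (0.920). Vcam1 had Selp (0.958), Neurl3 (0.950) and the NF-kB subunit Relb (0.945), and Selp had Litaf (0.967), Tnfaip3 (0.961) and Vcam1 (0.958). For these 4 genes the mice fall into a normal and an ischemic cluster, so any gene that steps between them scores high. Cdh5 had Ablim3 (0.953), the lipase anchor of capillaries Gpihbp1 (0.944) and Arap3 (0.935). Icam2 had Parvb (0.912), Gimap5 (0.895) and Srgn (0.894), and Pecam1 had Lsr (0.850), Atp6v0d2 (0.813) and Shisa9 (0.812). Of the 21 listed partners, 8 to 10 stayed in the lists under Spearman's rho or with the group means removed.

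Of 12 other genes known to be induced in activated endothelium, 6 were called higher after ischemia averaged over genotypes, where 0.616% of all tested genes were. None was called lower, and the median log2 fold of the 12 was 1.44 beside −0.05 over all tested genes. The list was chosen with earlier results of these data known, so nothing is read from this share. Which cells of the vessel made these transcripts was not measured. Nfkbia, the main inhibitor that NF-kB itself induces, went from group means of 120 and 95.2 CPM (WT, KO) to 408 and 329 (log2 fold 1.78, SE 0.145, edgeR adjusted p = 0.000172). Tnfaip3 went from 10.7 and 10.03 to 116 ± 113 (SD, n = 3) and 85.5 ± 36.5 CPM (SD, n = 4), a log2 fold of 3.26 (SE 0.458). The neutrophil chemokine Cxcl1 went from 0.806 and 1.84 to 85.4 and 73.5 CPM (6.04, SE 0.905), and Cxcl2 from 0.0629 and 0.425 to 27.7 and 23.3 CPM. Birc3, an inhibitor of apoptosis, went from 18.6 and 19.02 to 62.0 ± 49.4 (SD, n = 3) and 55.5 ± 12.5 CPM (SD, n = 4), with overlapping mice (1.64, SE 0.320). Csf3, the granulocyte growth factor, was at 0 counts in all Normal WT mice and at most 3 counts in Normal KO mice, against 0.274, 2.49 and 31.5 CPM from the lowest to the highest Ischemia WT mouse and 1.47 to 19.9 CPM in Ischemia KO. Nfkbia (467 CPM), Tnfaip3 (246), Cxcl1 (156), Birc3 (118) and Csf3 (31.5) were each highest in Ischemia WT replicate 2. Cxcl2 reached 43.2 CPM in the Ischemia WT group and 45.1 in Ischemia KO. Tnfaip3, Nfkbia and Cxcl2 are also among the nearest partners above.

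Of 9 genes for the cytokines that are known to switch on these receptors, and for their own receptors, 7 were tested and none was called in the averaged comparison (edgeR). That comparison called 0.927% of all tested genes in either direction, so no call among 7 says little. Tnf had 0 counts in all 14 mice, which allows up to 3 counts, or 0.113 CPM where that floor was highest. Il6 was at 0 counts in Normal WT, averaged 0.476 CPM in Normal KO, 8.26 ± 14.03 (SD, n = 3) in Ischemia WT and 7.57 ± 6.38 (SD, n = 4) in Ischemia KO (adjusted p = 0.0820), and reached 24.5 CPM in Ischemia WT replicate 2. Il1b averaged 0.101 and 0.276 CPM before and 0.935 and 1.57 after (adjusted p = 0.235), and the receptor gene Il1r1 41.8 and 39.6 before and 73.4 and 49.8 after (adjusted p = 0.175).

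The leukocyte side of the same contacts had no called gene. Of 12 genes for selectin and integrin ligands none was called in the averaged comparison, beside 0.927% of all tested genes in either direction. At that share a list this short with no call says little. Of the 12 fitted values 10 were below 0, and the median log2 fold was −1.19, beside −0.05 over all tested genes. Selplg, the P-selectin ligand of white blood cells, averaged 6.09 and 10.4 CPM before and 2.34 and 3.67 after (adjusted p = 0.142). Itgb2 and Itgal, which encode the chains of the ICAM-1 receptor LFA-1, averaged 9.49 and 17.9 against 3.78 and 6.96 CPM, and 1.83 and 6.87 against 0.202 and 1.55 CPM (adjusted p = 0.133 and 0.134).

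Genes that work beside the adhesion molecules were not called either. In the averaged comparison 0.927% of all tested genes were called in either direction, so no call in lists this short says little. Of 13 junction partners counted (of 14 listed) none was called, with a median log2 fold of −0.12. The last, Afdn, stands in the table as Mllt4 (124 and 100.1 CPM before, 79.3 and 73.4 after) and was not called either (adjusted p = 0.130). Tjp1 averaged 137 and 124 CPM before and 104 and 82.9 after (adjusted p = 0.184), Ctnnb1, which binds the tail of VE-cadherin, 457 and 395 against 579 and 514 (adjusted p = 0.209), and Cldn5 stayed below 1 CPM as a group mean in all 4 groups. Of 10 other endothelial adhesion genes 7 were tested and none was called, with a median of 0.18. Their smallest p-values belonged to Icam4 (0.194 and 0.178 CPM before, 1.08 and 1.11 after), Podxl (122 and 156 against 67.0 and 90.7) and Mcam (848 and 550 against 1195 and 988). Of 7 genes that gather adhesion receptors at the cell surface none was called, with a median of 0.17, and Msn, which links ICAM-1 and VCAM-1 to actin, averaged 808 and 658 CPM before and 1172 and 879 after (adjusted p = 0.213). Cttn, the actin-binding cortactin, averaged 125 and 104 against 150.2 and 130 CPM, and the tetraspanin Cd9 347 and 281 against 479 and 414 CPM (edgeR adjusted p = 0.254 and 0.298).

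Antisense and overlapping genes limit some counts, because strand was not stated. Icam1 shares 511 bases of exon with the antisense gene Gm47079, or 11.7% of its exon length. Selp shares 438 bases (9.93%) with the lincRNA Gm16548 and 186 bases (4.21%) with Gm16587, and Vcam1 shares 61 bases (0.688%) with Gm43109. Reads from these stretches cannot be assigned to a strand here. Icam2, Sele and Pecam1 shared no exon with another gene.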

How the data were processed

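Total RNA of the superior mesenteric artery of 14 mice was sequenced. The authors deposited read counts per gene symbol (whole numbers, not normalized). The submitters' processing notes name HISAT2 2.0.4 and mm10, and the counting program, annotation and strand setting are not given in the sources used here. The study's methods speak of chips, but the deposited values are counts of reads.

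Counts were filtered with filterByExpr (17693 of 46095 symbols kept), scaled by TMM and fitted with edgeR 4.0.16 in R 4.3.3 (glmQLFit, glmQLFTest) over all 14 mice and 4 groups, which share 1 estimate of the spread (biological coefficient of variation 0.522). P-values were adjusted by Benjamini-Hochberg over all tested genes. Genes were called at an adjusted p under 0.05 and a fold over 1.5, the limits of the study's methods, whose own test was another. The SE is the log2 fold divided by the root of F. The lowest and highest totals were 25612646 and 40255851 counts. Log2 CPM used a prior count of 2. No 2 mice of a group agreed within sampling noise (chi-square per degree of freedom at least 64.5 over 18 pairs). Same-numbered mice of Normal WT and Ischemia WT deviated together from their group means (r 0.120 to 0.192 over 3 pairs), while those of the KO groups did not in every pair, and the labels tie no number to a shared litter or day. The fit was tested on simulated counts with 200 changed genes.

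The adhesion genes and all lists were chosen with earlier results of these data known. The genes named are the 7, their 3 nearest genes by r, list genes called in a comparison or else the 3 with the smallest p in the averaged comparison, the 2 most abundant genes per cell type list, and Dnm1l. Of the most abundant genes the text names Acta2, Eng, Vwf, C1qa and C1qb, and gives the other cell type lists by their sums. Tnf, Sox18 and Cd3g were added for a value of 0 counts or their call, and Tagln for its low level. Esam is in 2 lists. Afdn is in the table under its older symbol Mllt4 and was not counted in its list. Exon lengths and positions are from GENCODE M21 (GRCm38), and promoters from RefSeq (GRCm38.p6). Alternatives were DESeq2 1.42.0, other scalings, filters, groups and covariates, a replicate block, and leaving out each mouse.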

Additional observations from a re-analysis of the deposited data

How the results depend on the processing

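The count of 4 of the 7 genes in the averaged comparison held without each mouse in turn, and was 3 where 10 counts were required in every mouse (Sele was then not tested) and in DESeq2, which gave Vcam1 no adjusted p. No gene of the 7 was called between genotypes or in the interaction under any alternative or without any mouse.

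The counts within a genotype were less stable. Selp in KO passed in 5 of 9 alternatives, among them DESeq2 (adjusted p = 8.81e-05), and in 1 of the 14 fits without a mouse. In WT (1 as reported) 3 were called by DESeq2, 2 with the pan-endothelial covariate, 0 with the replicate block, 0 with only the compared groups in the fit, and 0 to 2 without each mouse: 0 without Normal WT replicate 1, 2 or 3, Normal KO replicate 2 or 3, Ischemia WT replicate 2 or Ischemia KO replicate 1, 2 or 4, and 2 without Normal KO replicate 1. In KO (2 as reported) 1 was called at 10 counts in every mouse, 4 with only the compared groups, and 0 to 4 without each mouse: 4 without Ischemia WT replicate 2, 0 without Normal KO replicate 2 or 3, and 1 without Ischemia KO replicate 2 or 4. The causes were not tested.

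Same-numbered mice are different animals, and 11 of 19 such pairs had deviations from their group means that correlated above 0.1 (−0.15 to 0.32). All 3 pairs of Normal WT with Ischemia WT were above it (0.123, 0.192 and 0.120), whereas of the 4 KO pairs replicates 2 and 3 were not (0.0334 and −0.146). With the replicate block the interaction of Sele and Selp turned to 0.093 and 0.29, and the block ended the Icam1 call in WT (adjusted p = 0.0899) but no other call of the 7.

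Values near 0 changed sign. With the pan-endothelial covariate, KO minus WT after ischemia was 0.057 for Icam1 and 0.041 for Selp, and the Selp interaction 0.52. The same covariate gave ischemia folds of 0.086, 0.14 and 0.12 for Icam2 and 0.052, 0.35 and 0.20 for Cdh5 (WT, KO, averaged). The brown adipocyte covariate gave −0.051 for Vcam1, KO minus WT after ischemia. With 10 counts in every mouse, Icam1 KO minus WT after ischemia was 0.0023 and Cdh5 in KO 0.0075, and with only the compared groups they were 0.0034 and 0.018.

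Without each mouse in turn, KO minus WT after ischemia spanned −0.34 to 0.96 for Icam1, −0.34 to 1.68 for Vcam1, −1.01 to 0.13 for Sele and −0.71 to 1.93 for Selp. The interaction spanned −1.20 to 0.13, −1.15 to 0.87, −0.70 to 0.48 and −0.85 to 1.85 in the same order. Ischemia in WT spanned −0.60 to 0.21 for Icam2, −0.31 to 0.35 for Pecam1 and −1.10 to 0.47 for Cdh5. Ischemia in KO spanned −0.17 to 0.049 for Icam2 and −0.17 to 0.17 for Cdh5. Averaged, the spans were −0.32 to 0.080 for Icam2, −0.27 to 0.069 for Pecam1 and −0.54 to 0.24 for Cdh5. The upper ends for KO minus WT belong to the fit without Ischemia WT replicate 2, which was also set out as an alternative after the data had been seen.

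Over all genes, DESeq2 called 876 in the averaged comparison, against 164 as reported, 613 against 52 in KO and 112 against 2 in WT. Without each mouse in turn, edgeR called 60 to 361 genes averaged, 5 to 174 in KO and 0 to 3 in WT. Normal WT replicate 3, alone on its lane, did not change the averaged count of the 7 when left out. Counts of a single read (Sele in Normal KO replicate 1) are the limit of depth here.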
